A study of Mus musculus with 2 samples.

Results

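The genes described here store triglyceride in lipid droplets or release fatty acids from it, and their RNA was measured in mouse gastrocnemius, the large calf muscle. They are the droplet coat genes Plin2, Plin4 and Plin5, the triglyceride synthesis genes Dgat1 and Dgat2, the lipase genes Pnpla2, Lipe and Mgll, and the lipase regulators Abhd5 and G0s2. The genes were picked by name for their known roles, with no threshold on their values, though earlier results of these data were known. They are 10 of the 55536 genes in the deposited gene tables. All 10 had a row in every table and averaged at least 100 counts. The donors were female B6CASTF1/J mice aged 36 days, hybrids between a standard laboratory strain and wild-derived castaneus. No treatment or engineered allele is named in the labels. There is 1 group, with 2 total RNA libraries called replicate 1 and replicate 2, and 300 ng of RNA plus spike-in controls went into each. The samples are numbered apart in the labels but list the same donor record, which stands for the strain. Whether 2 animals were used is not stated, so part of the spread may be technical. With no second condition, no test of a condition exists and no p-value is given.

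Muscle fibres keep triglyceride in small droplets beside their mitochondria and draw on it during exercise and fasting. DGAT enzymes add the last fatty acid to diacylglycerol, perilipins coat the droplet surface, and a chain of lipases then removes the fatty acids in turn: ATGL, the product of Pnpla2, acts on triglyceride, hormone-sensitive lipase from Lipe on diacylglycerol, and monoacylglycerol lipase from Mgll on monoacylglycerol. ABHD5 (also called CGI-58) activates ATGL and G0S2 inhibits it. In fat cells, perilipin 1 takes the place that perilipin 5 holds in oxidative tissues such as heart.

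Plin4 and Plin5 lie next to each other on chromosome 17 of mm10, on the minus strand, at chr17:56100591-56109803 and chr17:56111601-56117596. Only 1797 bases separate them, and their ratios between the libraries differed, as given below. In the same build, Pnpla2 lies at chr7:141455198-141460743, Lipe at chr7:25379527-25398710 and Dgat2 at chr7:99153658-99182719. Plin2 lies at chr4:86648386-86670060, Dgat1 at chr15:76502015-76511953 and Mgll at chr6:88724412-88828360, and the remaining pair are Abhd5 at chr9:122351608-122381524 and G0s2 at chr1:193272161-193273217. Their upstream bases are shown because the genes are neighbours whose levels differ. They come from RefSeq (GRCm38.p6) and run 5′ to 3′ on the strand of the gene, up to the base before the start of the named GENCODE transcript. Capitals mark AGGTCA, the hexamer that many nuclear receptors recognise, and CCAAT, both searched on either strand (ATTGG is CCAAT on the other strand).
Plin5 upstream, chr17:56117597-56117798: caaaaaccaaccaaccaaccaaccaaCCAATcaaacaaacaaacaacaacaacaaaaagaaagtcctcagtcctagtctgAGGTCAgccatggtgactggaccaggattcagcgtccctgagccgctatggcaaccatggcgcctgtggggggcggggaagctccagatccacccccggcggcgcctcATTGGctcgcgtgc
Plin4 upstream, chr17:56109804-56110032: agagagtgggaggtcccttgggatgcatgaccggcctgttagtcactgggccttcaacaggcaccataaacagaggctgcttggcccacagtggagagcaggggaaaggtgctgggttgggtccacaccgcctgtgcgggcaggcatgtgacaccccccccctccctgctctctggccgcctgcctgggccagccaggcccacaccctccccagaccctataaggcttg

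The Plin5 stretch of 202 bases held AGGTCA 117 bases before the start, and CCAAT at 172 and, on the other strand, at 10 bases before it. The Plin4 stretch of 229 bases held neither. The 8 members with an entry in the RefSeq promoter table had 11 windows, each of the 250 bases before an annotated RefSeq start. A member is named where any of its windows matched, while the shares of all are per window, so they are not like for like. AGGTCA stood in windows of Plin2, Plin5 and Abhd5, and in 14.0% of all 32851 windows of that length. CCAAT stood in windows of Plin2, Plin4 and Plin5 and in 33.8% of all windows; the Plin4 match fell outside the stretch printed above because the RefSeq and GENCODE starts differ. CAGCTG, an E-box of the kind muscle regulators bind, stood in those of Plin2 and G0s2 and in 13.0% of all. The direct repeat known as DR1, the element that PPAR receptors bind, searched as an exact repeat, stood in no member's window and in 0.0335% of all. With so rare a match, its absence from the members' windows tells nothing about PPAR elements. All of these searches are for matches of letters, not measured binding. Dgat1 and Dgat2 had no entry.

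The libraries held 37735687 and 40656175 estimated counts, and 11264 and 11340 genes had a TPM (a level corrected for transcript length and library size) of at least 1. Mitochondrial genes took 9.39% of the counts in replicate 1 and 17.5% in replicate 2. The muscle label held: all 9 fast fibre markers were abundant, with a summed TPM of 100944 and 72721. The libraries stood apart in other ways. All 9 slow fibre markers were over 2-fold higher in replicate 2, where their summed TPM was 2842 against 18.80. Schwann cell markers were higher in replicate 1, with a summed TPM of 117.2 against 35.91 and all 4 of the counted genes over 2-fold apart, and fat cell markers went the same way, as given beside Lipe. Summed TPM was 24.25 and 25.78 for macrophage and 40.53 and 46.62 for endothelial markers, and no marker was at 0. The part of these differences in the members' values was not tested. In whole tissue, fewer cells of a type and less RNA per cell cannot be told apart.

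Plin4 and Pnpla2 were the highest of the 10 genes, several-fold above the rest. Plin4 ranked 433rd and Pnpla2 477th of all genes by mean TPM, whereas Plin2 ranked 2645th, Dgat2 2918th and the lowest, Dgat1, 6998th. In the reads-based tables all 10 mean levels were higher, Dgat1 had a mean of 8.84 TPM against 4.43 TPM, and G0s2 was the lowest with 7.26 TPM. Together the 10 genes summed to 321.4 TPM in replicate 1 and 366.0 TPM in replicate 2, of which Plin4 and Pnpla2 gave 47.9% and 29.7% in replicate 1 and 31.1% and 38.6% in replicate 2. By mean TPM the order was Plin4, Pnpla2, Plin2, Dgat2, Abhd5, Mgll, Plin5, Lipe, G0s2 and Dgat1. Only the steps from Pnpla2 to Plin2 and from Lipe to G0s2 separated neighbours whose library values did not overlap. Plin4 and Pnpla2 exchanged the first place between libraries. Dgat2 stood 7th in replicate 1 and 3rd in replicate 2, Plin5 8th and 5th, and Lipe 4th and 8th. The plot of TPM by gene shows these shifts.

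**Figure D1:**
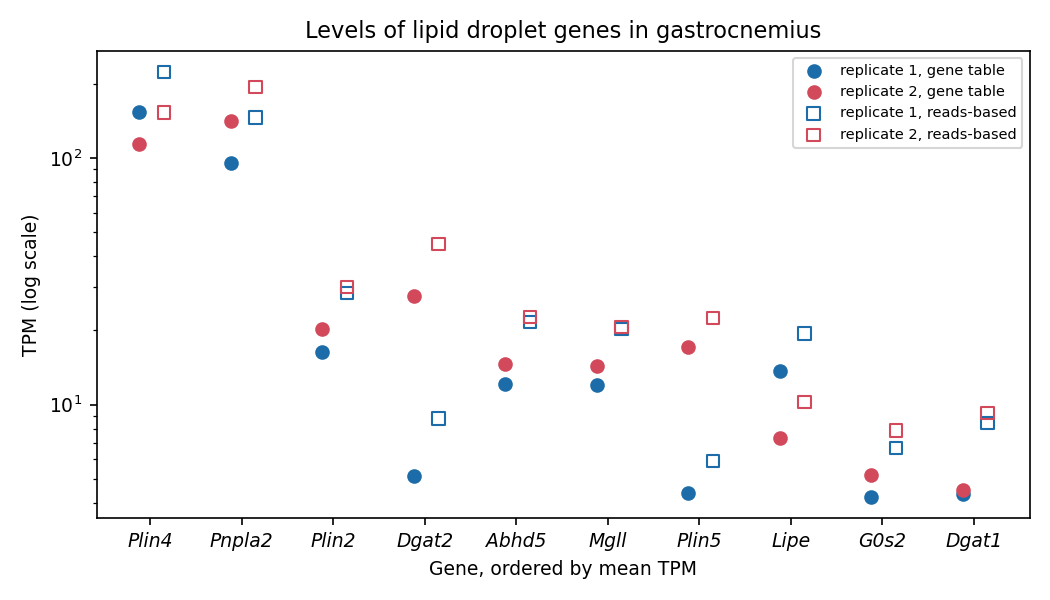
TPM (log axis) of the 10 genes in each library, ordered by mean. Filled circles are the deposited gene tables and open squares the sums of the reads-based transcript tables; blue is replicate 1 and red replicate 2. Plin4 and Pnpla2 lie above 90 TPM in every table, and the libraries lie far apart for Dgat2 and Plin5.

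Dgat2 and Plin5 were over 2-fold higher in replicate 2, and the other 8 members lay within 2-fold. Ratios between the libraries are of counts scaled by TMM, which takes most genes to be equal, with an exact 95% interval that covers counting error only. Of the 9996 genes that averaged at least 100 counts, 2.09% were over 2-fold higher in replicate 2 and 1.21% were over 2-fold higher in replicate 1. Of the 10 members, 2 were over 2-fold higher in replicate 2 and 0 were over 2-fold higher in replicate 1. The members' median log2 ratio (replicate 2 over replicate 1) was 0.26, with 7 higher and 3 lower, and that of all 9996 genes was -0.01. With counts scaled to the spike-ins instead, the medians were 0.38 for all genes and 0.65 for the members. With 1 ratio per gene, none of these differences has a replicate check.

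**Figure D2:**
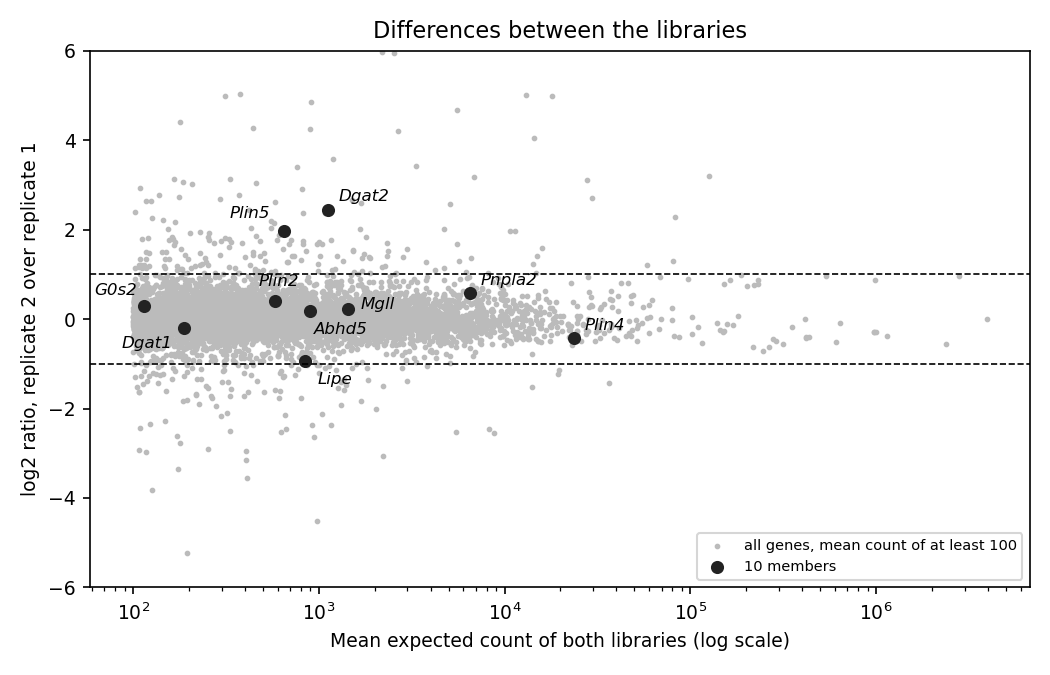
Log2 ratio of replicate 2 over replicate 1 against mean expected count (log axis) for 9996 genes (grey) and the 10 members (black); dashed lines mark 2-fold. Dgat2 and Plin5 lie above the upper line and Lipe just inside the lower one. The axis leaves out 14 genes with a log2 ratio beyond 6 in either direction.

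Among the coat genes, the 3 members differed in both level and direction. Plin4 encodes a perilipin abundant in muscle and fat. It had 153.9 TPM in replicate 1 and 113.8 TPM in replicate 2, from 26580 and 20759 counts. The level was 1.34-fold higher in replicate 1 (1.32 to 1.37), a log2 ratio of -0.43 that became -0.03 when scaled to the spike-ins, so its size rests on the scaling; the sign was negative under every scaling run. Plin2 encodes the perilipin found on droplets of most cells. Its TPM was 16.34 and 20.28 and its count 486 and 677, which made it 1.33-fold higher in replicate 2 (1.18 to 1.50). Of the 9996 genes, 17.0% were at least as far apart.

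Plin5, which encodes the perilipin that tethers droplets to mitochondria, had 4.390 TPM from 253 counts in replicate 1, and 17.07 TPM from 1039 counts in replicate 2, so the level was 3.92-fold higher in replicate 2 (3.41 to 4.51). Only 0.990% of the 9996 genes were at least as far apart. Slow fibre markers, listed above, were higher in the same library, and their part in the Plin5 difference was not tested. Within the perilipin family, Plin4 took 77.7% of the summed TPM in replicate 1 and 67.0% in replicate 2, and Plin1, the fat cell perilipin, 6.38% and 0.812%. Of the perilipin TPM outside Plin4, Plin5 took 9.95% in replicate 1 and 30.4% in replicate 2. Plin4 therefore exceeded Plin5 by 35.1-fold in replicate 1 and 6.67-fold in replicate 2, although the genes are neighbours.

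Of the synthesis pair, Dgat2 lay over 2-fold apart between the libraries and Dgat1 within 2-fold. Dgat2 had 5.150 TPM in replicate 1 and 27.46 TPM in replicate 2, from 332 and 1900 counts. This was the largest ratio of the 10 genes, 5.46-fold higher in replicate 2 (4.85 to 6.15), and 0.720% of the 9996 genes were at least as far apart. Dgat1, whose product catalyses the same reaction with an unrelated protein, had 4.330 and 4.530 TPM and 196 and 180 counts. Its interval included 1 (ratio 0.876, 0.711 to 1.08), and its log2 ratio was -0.19 by TMM but 0.20 scaled to spike-ins and 0.06 from TPM, so no direction can be given. Dgat2 thus made up 54.3% of the pair's TPM in replicate 1 and 85.8% in replicate 2. The reads-based tables gave 51.1% and 82.9%. The slow fibre markers moved the same way as Dgat2, and the fat cell markers the opposite way; their part was not tested.

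Of the lipases, Pnpla2 dominated in both libraries. Pnpla2 had 95.33 TPM in replicate 1 and 141.4 TPM in replicate 2, from 5077 and 7963 counts. It was 1.50-fold higher in replicate 2 (1.44 to 1.55), beyond counting error, and 9.10% of the 9996 genes were at least as far apart. Its log2 ratio was 0.58 by TMM and 0.97 scaled to the spike-ins. Pnpla2 gave 78.8% and 86.7% of the TPM of the 3 lipases. Mgll had 11.99 and 14.36 TPM and 1293 and 1581 counts, 1.17-fold higher in replicate 2 (1.08 to 1.26). This difference exceeded counting error, but 38.5% of the 9996 genes were at least as far apart.

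Lipe was higher in replicate 1, beyond counting error but within 2-fold. It had 13.63 TPM in replicate 1 and 7.310 TPM in replicate 2, from 1088 and 594 counts. The ratio was 1.92-fold in favour of replicate 1 (1.74 to 2.13), its log2 value was -0.94 (-0.55 scaled to spike-ins), and 3.75% of the 9996 genes were at least as far apart. Pnpla2 therefore exceeded Lipe 6.99-fold in replicate 1 and 19.3-fold in replicate 2. Lipe is also a fat cell gene. Of 12 fat cell markers, 11 were higher in replicate 1 and 5 of the 7 with a mean count of at least 100 were over 2-fold higher there. Their summed TPM was 1054 and 949.9. Car3, which muscle also expresses, gave 702.5 and 835.2 of it; the other 11 markers summed to 351.9 and 114.8, a split made after the values were seen. None was at 0: adiponectin (Adipoq) had 21.50 and 2.210 TPM, adipsin (Cfd) 157.8 and 18.65, and the fatty acid binding protein gene Fabp4 126.8 and 88.41. The ratio of Lipe to Plin1 TPM was 1.08 in replicate 1 and 5.30 in replicate 2, and 0.800 and 5.51 in the reads-based tables, so which was higher in replicate 1 depends on the table. The part of fat cells in the Lipe difference was not tested.

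Both regulators of ATGL had small ratios between the libraries by TMM, with log2 ratios of 0.18 for Abhd5 and 0.30 for G0s2. Scaled to the spike-ins, these were 0.58 and 0.69. Abhd5 had 12.15 and 14.59 TPM and 817 and 974 counts, 1.14-fold higher in replicate 2 (1.03 to 1.25). G0s2 had 4.240 and 5.180 TPM, but only 100 and 129 counts, and its interval included 1 (ratio 1.23, 0.940 to 1.61). Abhd5, the activator, exceeded G0s2, the inhibitor, 2.87-fold in replicate 1 and 2.82-fold in replicate 2. Pnpla2 exceeded Abhd5 7.85-fold and 9.69-fold and G0s2 22.5-fold and 27.3-fold. These are ratios of RNA levels per length, not of proteins.

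The other lipid droplet genes give the members a setting. This list of 36 genes of droplet coating, triglyceride synthesis and lipolysis had 27 with a mean count of at least 100. Of these, 0 were over 2-fold higher in replicate 2 and 3 were over 2-fold higher in replicate 1, with a median log2 ratio of 0.03. The 3 were Cidec, which drives droplet fusion in fat cells (19.27 and 1.450 TPM, 11.8-fold), Plin1 (12.63 and 1.380 TPM, 7.72-fold), and Pde3b, the phosphodiesterase that restrains lipolysis (2.890 and 1.290 TPM, 2.09-fold). Scaled to the spike-ins, Gpat3, Acsl1, Gpam, Plin3 and Fitm2 were over 2-fold higher in replicate 2, with log2 ratios of 1.03 to 1.27. Cidec and Plin1 stayed over 2-fold higher in replicate 1 (-3.16 and -2.55), but Pde3b fell within 2-fold (-0.67). The list's median was then 0.42. These counts therefore rest on the scaling, and the share of all genes over 2-fold apart was computed with TMM only. Plin1 and Cidec are also on the fat cell list. The 4 most abundant ones ranged from about the level of Plin4 and Pnpla2 down to Rab18. Fitm1, which helps droplets form in muscle, had 108.7 and 117.1 TPM. Lpin1, the phosphatase that makes diacylglycerol, had 126.1 and 96.41 TPM. Acsl1, which activates fatty acids, had 76.46 and 128.4 TPM and was 1.73-fold higher in replicate 2; Rab18, a droplet GTPase, had 51.05 and 51.04 TPM. Hsd17b13 and Mogat2 had 0 counts in both libraries, which allows up to 3 counts per library. The plot of ratios with their intervals places the members among these genes.

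**Figure D3:**
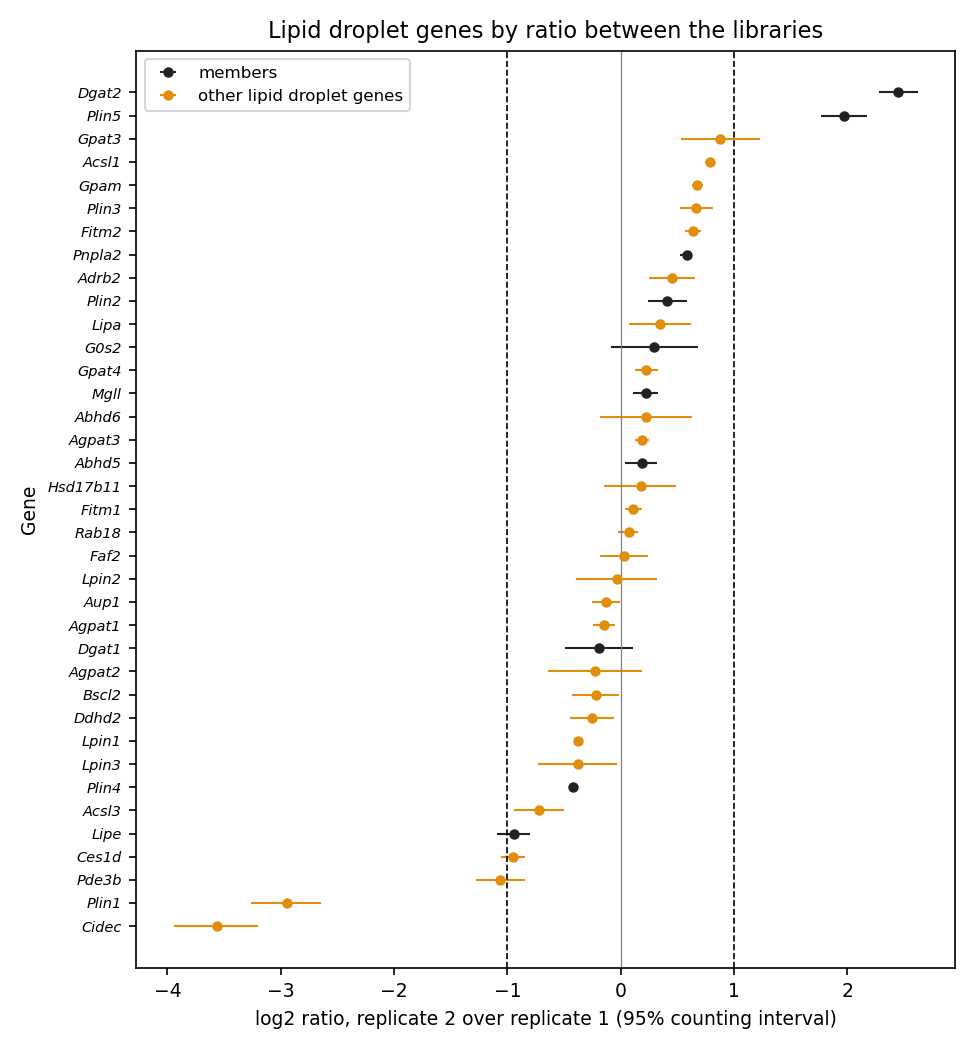
Log2 ratio of replicate 2 over replicate 1 with exact 95% counting intervals for the 10 members (black) and the 27 other lipid droplet genes that averaged at least 100 counts (orange); dashed lines mark 2-fold. Dgat2 and Plin5 are the 2 highest and Cidec and Plin1 the lowest.

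**Figure D4:**
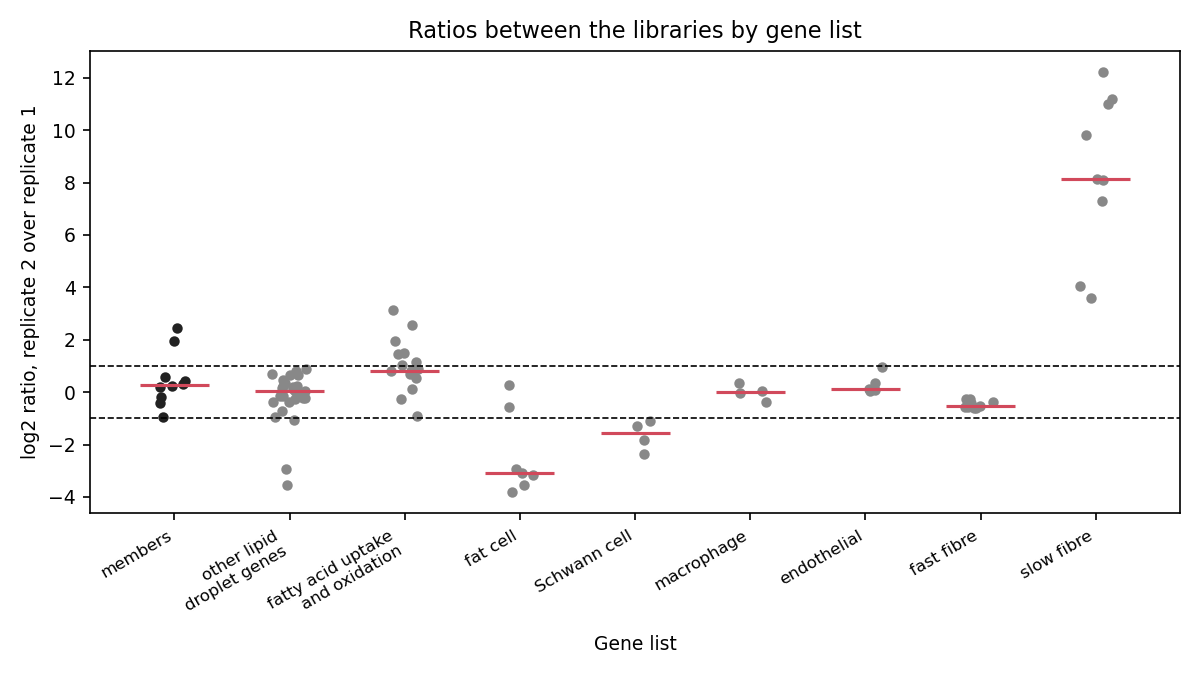
Log2 ratio of replicate 2 over replicate 1 for each gene that averaged at least 100 counts, by list; red bars are medians and dashed lines mark 2-fold. The medians are 0.26 for the members, -3.07 for fat cell markers, -1.56 for Schwann cell markers, 0.01 for macrophage, 0.12 for endothelial and 8.14 for slow fibre markers.

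The transcript tables show which RNA forms of each gene were counted. A transcript's share is its part of the gene's TPM, from transcriptome alignments unless stated. For 8 of the 10 genes, 1 transcript had a share of over 50% when its shares in both libraries were averaged. Lipe-202 was below that in replicate 2, with 43.4%. G0s2 has a single transcript, Dgat2-201 held 96.7% and 98.9%, and Mgll-204 held 85.8% and 89.3%, though the reads-based tables gave Mgll-204 only 48.3% and 38.5%. Dgat1-201, the only one of its 12 transcripts annotated as protein-coding, held 69.8% and 53.4%. In the reads-based tables it held 41.3% and 22.2%, from few counts. The panels of transcript shares compare both tables.

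**Figure D5:**
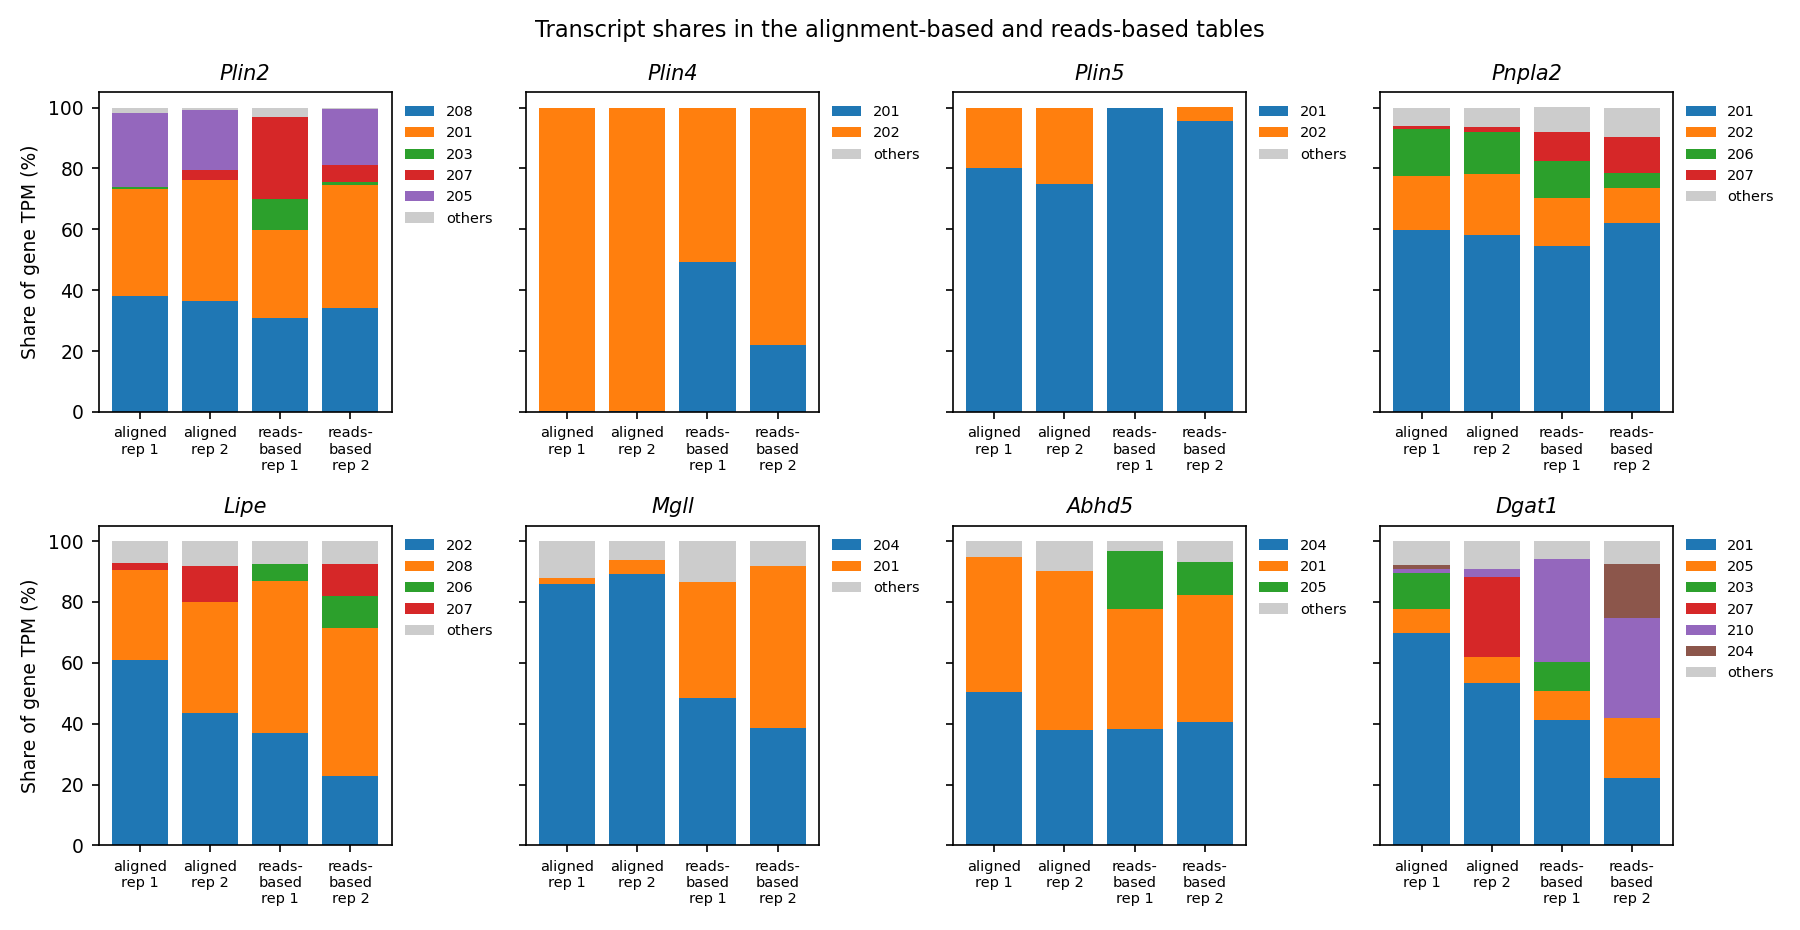
Share of each gene's TPM (%) by transcript in 8 members, from the alignment-based (aligned) and reads-based tables of each library (rep 1, rep 2). Colours are the transcripts with at least 10% in any bar, by their number in the gene, and grey is the rest. Pnpla2-201 is the largest part of Pnpla2 in all 4 bars, while Plin4, Mgll, Lipe, Dgat1, Plin2 and Plin5 are among those split differently by the tables.

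For Pnpla2 and Abhd5, the main transcript by mean share was one that the annotation marks for nonsense-mediated decay, the pathway that removes RNAs with an early stop codon. Pnpla2-201 held 59.7% of Pnpla2 in replicate 1 and 58.0% in replicate 2, from 3390 and 5159 counts with a posterior SD of 100 and 156. The reads-based tables gave 54.4% and 62.1%. Compared with Pnpla2-203, which encodes 486 codons and held 3.01% and 2.36%, it carries an extra exon of 82 bases at chr7:141456568-141456649, and its reading frame ends there after 70 codons. The start of that exon is shown, plus strand, with the stop codon in capitals.
Pnpla2-201, chr7:141456568-141456593: gtgatcttgagcagctagaacaaTGA

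Protein-coding models together held 36.1% and 36.4% of Pnpla2. Among them Pnpla2-202, with 17.7% and 20.3%, lacks an exon of 168 bases, and Pnpla2-206 held 15.4% and 13.7%. The reads-based tables gave the protein-coding models less, 29.6% and 19.2%, and Pnpla2-206 12.3% and 5.04%. Pnpla2-203 also ends 651 bases further 3′ than Pnpla2-201, so the models differ in their ends as well as in that exon. Whether the shares come from reads over the extra exon or over the ends was not tested, because the tables hold no reads.

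Abhd5 was divided between Abhd5-204, which encodes 351 codons and held 50.5% and 37.8%, and Abhd5-201, with 44.1% and 52.2%. The reads-based tables gave 38.1% and 40.5% to the former and 39.7% and 41.8% to the latter. Their order changed between the libraries by alignment, while Abhd5-201 was slightly ahead in both reads-based tables. Abhd5-201 has an extra exon of 50 bases, and its frame ends after 38 codons, in the next exon. Both are shown on the plus strand, again with the stop codon in capitals.
Abhd5-201 extra exon, chr9:122363815-122363864: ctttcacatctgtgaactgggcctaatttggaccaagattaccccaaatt
Abhd5-201 next exon to the stop, chr9:122365136-122365149: gtcaggatggcTGA

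Abhd5-204 runs 1699 bases further 3′, so here too the models differ at their ends. Plin2 was divided among Plin2-201, the full coding form, with 35.4% and 40.0%, the short noncoding Plin2-208 with 38.0% and 36.3%, and Plin2-205 with 24.1% and 19.9%. The reads-based tables gave Plin2-205 0% in replicate 1, where Plin2-207 had 26.9%, and 18.6% in replicate 2. By counts, which are not corrected for length, Plin2-201 led with 316 and 468 against 93 and 116 for Plin2-208. Plin5-201 held 80.0% and 74.9% and Plin5-202 the rest, but the reads-based tables gave Plin5-202 only 0% and 4.55%, and the alignment count of 51 in replicate 1 had a posterior SD of 28.3. Lipe-202 held 60.9% in replicate 1 and 43.4% in replicate 2, and Lipe-208 held 29.5% and 36.6%. The reads-based tables put Lipe-208 first, with 50.1% and 48.7%; both encode 759 codons. A retained-intron form, Lipe-207, held 2.27% and 11.7%, from only 4 and 11 counts with posterior SDs of 3.48 and 4.21, and 0% and 10.6% in the reads-based tables.

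For Plin4 the tables also differed. Plin4-202 held 99.6% and 99.8% by alignment, but 50.6% and 77.9% in the reads-based tables, where Plin4-201 had the rest. The annotated sequences cannot be told apart: over 5755 bases the 2 transcripts do not differ, and Plin4-202 has only 1 more base at its 5′ end. The models place the same 21 bases either at the end of an exon or at the start of the next, minus strand.
Plin4-202, end of the exon, chr17:56106096-56106116: gggctgtgaacgtggctaaag
Plin4-201, start of the next exon, chr17:56105502-56105522: gggctgtgaacgtggctaaag

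Overlapping genes were counted beside some members. Overlaps were found for 5 members, with 9 genes, 6 of them on the opposite strand. The antisense gene 4732471J01Rik spans the Lipe locus and had 16 and 22 counts, against 1088 and 594 for Lipe. Lamb3, around G0s2 on the other strand, had 23 and 44 counts, against 100 and 129 for G0s2. Hdgfl2 had 631 and 644 counts and shares only 17 bases with Plin4. Overlap was taken between whole gene spans, introns included, so shared transcript bases were not measured. Whether counting used the strand is not stated, and mixing of reads between such pairs was not tested. The posterior SD of the gene count, a score of the certainty of read assignment, was 0 in both libraries for these 5 members.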

How the data were processed

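Total RNA from 2 gastrocnemius libraries of 1 group was analysed. For each library the authors deposited a gene table and a transcript table made from transcriptome alignments, and a transcript table made from the reads. Expected counts (estimated counts in the reads-based tables) are as deposited, not normalised. TPM values are as deposited and sum to a fixed total over all rows. The posterior SD of the count, per the file headers, is a score of the certainty of read assignment. Per the deposited descriptions, genes and transcripts are those of GENCODE M21 on mm10. The quantification program is not given in the sources used here.

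Counts were rounded and scaled by TMM (edgeR 4.0.16, R 4.3.3). Log2 ratios used a prior count of 0.5. Folds are ratios of scaled counts with exact (Clopper-Pearson) 95% intervals. These cover counting error alone and treat every count as independent. The computation was tested on simulated data. Alternatives used DESeq2 1.42.0 size factors, spike-in or total counts, TPM with a pseudocount of 0.5, the reads-based tables, other filters, a prior count of 2, and each library left out. Other steps used Python 3.11.15 with pandas 2.3.3, scipy 1.17.1 and matplotlib 3.10.9.

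The members and lists were chosen with earlier results of these data known. Named genes are the 10 members, the 4 most abundant other droplet genes, every other droplet gene over 2-fold apart at a mean count of at least 100, up to 3 of the most abundant markers of each list, and transcripts with at least 10% of a gene by alignment. Markers and transcripts outside this rule were named after their values were seen. Promoter sequences came from RefSeq (GRCm38.p6) and matched 8 of 10 members.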

Additional observations from a re-analysis of the deposited data

How the results depend on the processing

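The count of members over 2-fold apart was 2 under every alternative run. The members' median log2 ratio moved from 0.26 to 0.65 with spike-in scaling, which shifted all genes. With that scaling Pnpla2 moved from 0.58 to 0.97, close to 2-fold, and Plin2 from 0.41 to 0.80. G0s2 moved from 0.30 to 0.69, Mgll from 0.22 to 0.61 and Abhd5 from 0.18 to 0.58. The shifts of Plin4, Lipe and Dgat1 are given above. The share of all genes over 2-fold apart was computed with TMM only. The median of the members' mean TPM was 13.3 in the gene tables and 21.3 in the reads-based tables. There, a transcript with over 50% of the gene was found for 5 members, against 8 by alignment, and the leading transcript was the same in 7 of 10; it was the same in 10 without replicate 1 and in 8 without replicate 2. No paired analysis was possible because there is only 1 group. Depth limits G0s2 and Dgat1, whose intervals included a ratio of 1. For the spread beyond counting error, edgeR gave 1 common coefficient of variation of 0.220, shared by 14263 genes. With 2 libraries, this spread cannot be separated into animal and technical parts.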

Other observations

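Genes of fatty acid uptake and oxidation, listed together with regulators such as Ppara and Ppargc1a, were mostly higher in replicate 2. Of 18 genes on this list, 17 had a mean count of at least 100; 15 were higher in replicate 2, 7 of them over 2-fold, and over all 9996 genes 4799 were higher there and 2.09% over 2-fold. The list's median log2 ratio was 0.82 against -0.01 for all genes. Their summed TPM was 1102 in replicate 1 and 2170 in replicate 2. Fabp3, the muscle fatty acid binding protein, had 62.98 and 374.7 TPM and was 5.99-fold higher in replicate 2 (5.66 to 6.35). The most abundant gene of the list, Pdk4, had 392.9 and 663.5 TPM (1.75-fold), and Hadhb had 95.05 and 157.3 TPM (1.86-fold). The 2 counted genes lower in replicate 2 were Angptl4 (log2 ratio -0.91) and Ucp3 (-0.26, but 0.14 scaled to the spike-ins). The genes that follow were named after their values were seen. Lipoprotein lipase, Lpl, had 42.02 and 158.1 TPM and was 3.91-fold higher in replicate 2 (3.79 to 4.04). Ppara, a nuclear receptor for fatty acids, had 0.7000 and 6.480 TPM, from 65 and 602 counts, and Ppargc1a, its coactivator, had 8.090 and 23.47 TPM. Ppard, the related receptor, had 10.10 and 12.19 TPM, and its interval included a ratio of 1 (1.09, 0.993 to 1.19). Slow fibre markers were higher in the same library, and their part in these values was not tested.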
